A study of Mus musculus with 6 samples.

Results

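The 10 genes described here are the inducible HSP70 pair Hspa1a and Hspa1b, the constitutive HSP70 gene Hspa8, their cochaperone genes Hsph1, Dnajb1 and Bag3, the HSP90 genes Hsp90aa1 and Hsp90ab1, the small heat shock protein gene Hspb1, and Hsf1, which encodes heat shock factor 1. They were taken by symbol from a table of 52459 gene symbols, and all 10 were among the 15380 genes with enough counts to be tested. They were chosen with their piceatannol against control values in view, so those values are given as a description, with a standard error (SE) and without a test. RNA was sequenced from C57BL/6 mouse macrophages raised from bone marrow with GM-CSF, a growth factor for myeloid cells. The control group is 3 libraries of cells given vehicle overnight from day 7 of culture, and the piceatannol group is 3 libraries of cells given piceatannol, a plant stilbene used to block the kinase Syk, over the same period. The sources used here do not give the dose, the vehicle or the sex and age of the mice. Whether replicate libraries are separate mice or cultures is not stated, so p-values measure only the spread between these libraries, which may be technical.

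HSP70 proteins bind unfolded stretches of other proteins and release them in a cycle driven by ATP. J-domain proteins such as DNAJB1 start that cycle, and exchange factors such as HSPH1 and BAG3 reset it. HSP90 acts on a narrower set of partly folded clients, many of them kinases, and small heat shock proteins hold unfolded proteins without using ATP. HSF1 is held inactive by chaperones in unstressed cells and, once released, binds repeats of the bases GAA in the promoters of many of these genes.

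The libraries held between 33276569 and 58697084 counts, and values are given as CPM (counts scaled to library size with TMM factors) or, where genes are compared with each other, as FPKM (fragments scaled to gene length and library size, from the authors). Markers fixed for macrophages summed to between 19170 and 23120 CPM in the control and between 13490 and 14930 CPM in the piceatannol libraries, and all 9 were detected. Most of that sum was Lyz2, with group means of 14876 and 10224 CPM, and the markers moved in both directions. Cd14 (285 and 1081 CPM) and Cd68 (428 and 925 CPM) were higher with piceatannol. The rest were lower, with the largest fall in Fcgr1 (226 and 22.3 CPM). The dendritic cell list (6 markers) summed to between 1537 and 1664 CPM in control and between 813 and 1012 CPM in piceatannol libraries, and the stromal list (4 markers) to between 1885 and 2126 and between 466 and 506 CPM. Most of that stromal fall came from Col1a1 (group means of 887 and 216 CPM) and Col1a2 (1060 and 242 CPM). Pdgfra (12.2 and 8.41 CPM) and Dcn (26.3 and 21.9 CPM) differed less. The erythroid and megakaryocyte list (5 markers), mostly Pf4, summed to between 250 and 273 CPM in control and between 251 and 297 CPM in piceatannol libraries. The neutrophil list (6 markers) went from between 247 and 568 to between 33.6 and 41.6 CPM, and the mast cell and basophil list (4 markers) from between 21.6 and 26.7 to between 67.6 and 85.1 CPM. The higher sum of that last list came from Kit, with group means of 21.5 and 74.4 CPM. Its other markers were lower with piceatannol, Cpa3 with means of 1.73 and 0.0529, Mcpt8 of 1.08 and 0.257 and Fcer1a of 0.0882 and 0.0273 CPM. The lymphocyte list (6 markers, Ncr1 at 0 in every library) summed to between 1.40 and 2.45 CPM in control and between 0.151 and 0.570 CPM in piceatannol libraries. In such bulk samples fewer cells of a type and less RNA per cell cannot be told apart, and the part these shifts have in the chaperone values was not tested. Mitochondrially encoded genes took between 0.777% and 0.866% of the counts in control and between 1.87% and 2.65% in piceatannol libraries, and the part of this shift was likewise not tested.

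Of the 10 genes, 8 had a log2 fold change of at least 1 with piceatannol, and Hspa1a, Hspa1b and Hsph1 had one of at least 3. Among all tested genes 17.6% had a log2 fold change of at least 1 and 2.46% of at least 3. The 3 piceatannol values lay above the 3 control values in 9 of the 10 genes, and in Hsf1 the groups overlapped. A gap of that kind was found upward in 39.9% and in either direction in 79.0% of all tested genes, and since the genes were chosen on this comparison nothing is read from their count. The difference between the groups reached far into the transcriptome, with 77.0% of tested genes called higher or lower in edgeR's quasi-likelihood test (Benjamini-Hochberg adjusted p under 0.05).

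**Figure D1:**
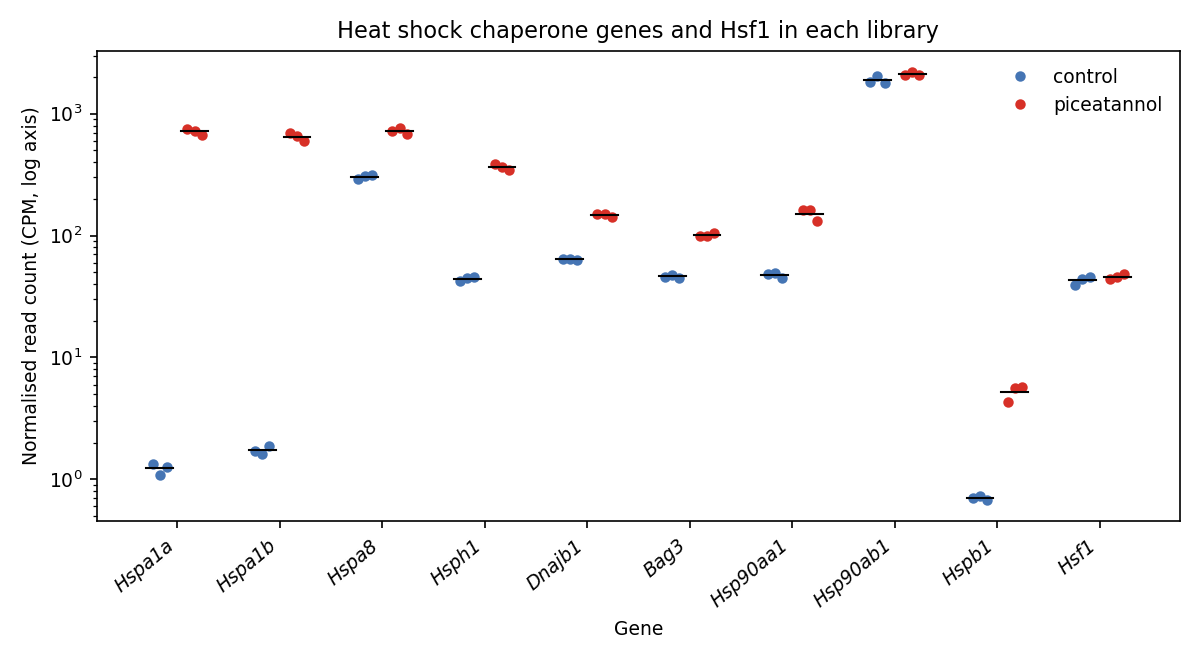
Normalised read count (CPM, log axis) of the 10 genes in each of the 6 libraries, with control in blue, piceatannol in red and the group mean as a black line. Hspa1a and Hspa1b lay between 1.09 and 1.90 CPM in control and between 593 and 748 CPM in piceatannol libraries, while the Hsf1 groups overlapped.

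The inducible HSP70 genes were nearly silent in control macrophages. Hspa1a (mm10/GRCm38 chromosome 17, 34969190 to 34972156, minus strand) was counted 71, 48 and 74 times in the control and 31505, 23969 and 32899 times in the piceatannol libraries. On the scaled count these were 1.34, 1.09 and 1.25 CPM against 748, 725 and 674 CPM. All piceatannol libraries stood far above all control libraries, and piceatannol replicate 3 was the lowest of its group. The log2 fold change of Hspa1a was 9.17 ± 0.10 (SE), and its level went from 0.413 ± 0.0404 to 238 ± 12.8 FPKM (SD, n = 3 each). By level in FPKM it ranked 12349 of the 15380 tested genes in control and 161 with piceatannol.

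Hspa1b (chromosome 17, 34956436 to 34959238, minus strand), which encodes the same chaperone 9951 bases away, had 1.72, 1.62 and 1.90 CPM in control and 698, 654 and 593 CPM with piceatannol. Its log2 fold change was 8.53 ± 0.10 (SE), and its FPKM rank went from 11694 to 167. The order of the piceatannol libraries was the same as for Hspa1a, with replicate 1 highest and replicate 3 lowest. Ranked by log2 fold change over all tested genes, the pair stood at places 5 and 6. Hspa1a supplied 43.8%, 40.3% and 39.8% of the counts of the pair in the control libraries, with the widest exact 95% binomial interval running from 31.5% to 49.7% in control replicate 2. In the piceatannol libraries it supplied 51.7%, 52.6% and 53.2%, with every interval between 51.4% and 53.6%. The share was thus higher in each piceatannol library than in each control library, although the interval of control replicate 1 reached 51.8%, above the lowest bound with piceatannol. These intervals cover counting error only.

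How reads were divided between the pair is uncertain. Of all stretches of 50 bases in the Hspa1a transcript of GENCODE release M21, 66.3% also occur in a transcript of another gene, and 58.8% in Hspa1b. With stretches of 100 bases the shares were 56.5% and 47.1%. The sources used here do not give the read length or how reads that map to several genes were treated.

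The promoters of the pair are close copies. They are shown because these genes moved together, with the 250 bases before each RefSeq start (GRCm38.p6, minus strand) read 5′ to 3′. The Hspa1a run covers chr17:34972157-34972406 and the Hspa1b run chr17:34959239-34959488. Capitals mark matches to the heat shock element, searched on both strands as GAANNTTC or TTCNNGAA (2 units) and as GAANNTTCNNGAA or TTCNNGAANNTTC (3 units), the latter with at most 1 of its 9 fixed letters different. Matches of the 2 forms can overlap.

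Hspa1a: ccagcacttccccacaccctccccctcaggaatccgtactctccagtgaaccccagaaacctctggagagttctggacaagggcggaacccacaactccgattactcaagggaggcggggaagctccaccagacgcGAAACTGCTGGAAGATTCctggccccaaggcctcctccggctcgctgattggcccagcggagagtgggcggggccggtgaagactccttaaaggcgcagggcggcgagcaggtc
Hspa1b: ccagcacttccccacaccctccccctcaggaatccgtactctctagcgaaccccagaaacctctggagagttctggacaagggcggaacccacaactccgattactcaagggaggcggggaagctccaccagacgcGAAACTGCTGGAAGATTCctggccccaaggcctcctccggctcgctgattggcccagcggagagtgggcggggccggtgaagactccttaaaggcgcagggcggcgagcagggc

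Of the 250 bases, 247 (98.8%) were identical. The differences, with the Hspa1a base first and positions counted from 1 at the 5′ end of the printed run, were C44T, T47C and T249G, all outside the capitals. Both promoters held the 2-unit match GAAGATTC from 104 to 97 bases before the start, and the 3-unit matches GAAACTGCTGGAA and TGCTGGAAGATTC, each with 1 letter different, overlapped it. Neither held 3 units without a different letter.

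The gene order around the pair gave further values. Hspa1l (chromosome 17, 34972703 to 34979285, plus strand), a testis-associated HSP70 relative, points away from Hspa1a, and their starts lie 547 bases apart. Its counts were 4, 13 and 6 in control and 180, 81 and 186 with piceatannol, a ratio of summed counts per total of 23.9 with a counting interval of 15.7 to 38.1 at 95%. It rose by 4.54 ± 0.36 (SE) on the log2 scale (adjusted p = 1.5e-09, edgeR's quasi-likelihood test). Control replicate 2 holds 13 of its 23 control counts, and without that library the log2 fold change was 5.26. On the log2(FPKM + 1) scale it was 1.16. The antisense gene Gm10501 shares 71.4% of the 50-base stretches of the Hspa1l transcript. Hspa1a and Hspa1b also share some of its stretches. In piceatannol replicate 1 they had 31505 and 29382 counts, against 180 for Hspa1l. The part that reads of the pair have in the Hspa1l rise was not tested. Gm10501 rose by 1.35 (adjusted p = 0.00145, edgeR), from 14, 15 and 19 to 36, 30 and 31 counts.

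Opposite Hspa1a on the plus strand, Gm20481 was at 0 in all control libraries and had 34, 35 and 31 counts with piceatannol, at least 41.0-fold higher when control is set to a floor of 3 counts over the group. Its exons cover 564 bases, or 19.0%, of Hspa1a. The sources used here do not give the strand setting of the counting, so reads of Hspa1a and of these opposite genes cannot be told apart.

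Of 26 annotated genes within 100 kb of the pair, 14 were tested, of which 7 rose, 6 fell and 1 was not called, against 38.8% called higher and 38.3% called lower among all tested genes. The nearest tested gene downstream of Hspa1b on its strand, the noncoding snoRNA host 1110038B12Rik, begins 3965 bases beyond it and rose 2.53-fold, from 29.8, 31.6 and 32.1 to 81.1, 73.2 and 81.9 CPM (adjusted p = 3.35e-13, edgeR). Neu1, a lysosomal sialidase gene, rose by 0.55 on the log2 scale, Ddah2 by 0.94 and the meiotic repair gene Msh5 by 1.19. Lsm2, encoding an RNA-processing ring subunit 9706 bases from Hspa1a, fell by 1.67, and Vars, encoding the valyl-tRNA synthetase, fell by 1.93. The histone methyltransferase gene Ehmt2 (-0.32), the zinc finger gene Zbtb12 (-0.78), the chloride channel gene Clic1 (-0.83) and the complement gene Cfb (-0.80) also fell, and the complement gene C2 had -0.19 and was not called. The genes beside the pair thus moved in both directions, and the rises of Hspa1l, Gm10501 and Gm20481 carry the counting limits given above. The Cfb call was lost with DESeq2 (adjusted p = 0.0539) and in 4 of the fits that left out a library, where its adjusted p ran up to 0.135.

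**Figure D2:**
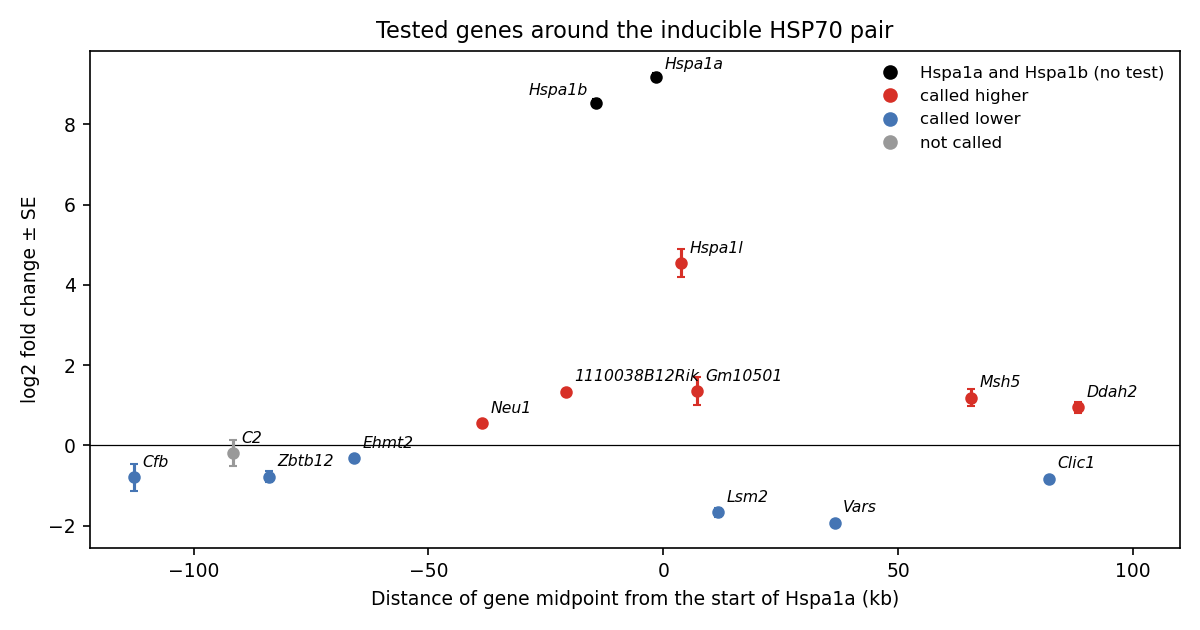
Log2 fold change (piceatannol over control) with SE for tested genes within 100 kb of the pair, against the distance of each gene's midpoint from the Hspa1a start in kb. Gm20481, which lies inside Hspa1a and is at 0 in control, is left out. Hspa1a (9.17), Hspa1b (8.53) and Hspa1l (4.54) stand above the rest, which lie between -1.93 and 1.35.

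Hspa8, the constitutive HSP70 gene (chromosome 9, 40800984 to 40810087), was abundant without treatment. It had 289, 309 and 315 CPM in control and 724, 767 and 683 CPM in piceatannol libraries, a log2 fold change of 1.25 ± 0.06 (SE). The groups did not overlap, and the highest piceatannol library was replicate 2. Hspa8 shares 74.8% of its 50-base stretches with other genes, most with the pseudogene Gm15459, which held between 29 and 68 counts per library against at least 13546 for Hspa8.

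On the FPKM scale, which allows genes to be set side by side, the makeup of the cytosolic HSP70 transcripts turned over. Hspa1a and Hspa1b together made up 1.44% ± 0.128 of the summed level of Hspa1a, Hspa1b and Hspa8 in control and 73.7% ± 1.04 with piceatannol (SD, n = 3 each). By library the shares were 1.55%, 1.30% and 1.47% in control and 74.8%, 72.8% and 73.4% with piceatannol. The summed level was 71.8 ± 3.13 FPKM in control and 631 ± 38.6 FPKM with piceatannol, 8.79-fold higher. Among these 3 genes Hspa8 had the highest level in every control library, and with piceatannol both inducible genes exceeded it in every library. The uncertain counting of near-copies applies to all 3 genes and so to these shares.

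The HSP70 cochaperones differed in size of response. Hsph1 (chromosome 5, 149614287 to 149636376), whose HSP110 product exchanges nucleotide on HSP70, had 42.3, 44.5 and 46.0 CPM in control and 384, 368 and 344 CPM with piceatannol. Its log2 fold change was 3.04 ± 0.07 (SE), and none of its 50-base stretches occurs in another gene. Its piceatannol libraries ran in the same order as those of the HSP70 pair. Dnajb1 (chromosome 8, 83608193 to 83612653), the J-domain partner of inducible HSP70, had 64.5, 63.9 and 63.4 CPM in control and 151, 151 and 142 CPM in piceatannol libraries, a log2 fold change of 1.21 ± 0.06 (SE). The control values of Dnajb1 differed by little, with a coefficient of variation of 0.843%. Bag3 (chromosome 7, 128523616 to 128546981), which links HSP70 to selective autophagy, had 46.0, 47.7 and 45.3 CPM in control and 99.5, 99.8 and 105 CPM in piceatannol libraries, a log2 fold change of 1.13 ± 0.06 (SE). Unlike the HSP70 pair, Bag3 was highest in piceatannol replicate 3. In control these cochaperones stood above the inducible HSP70 genes, at 6.10 ± 0.254 (Hsph1), 19.97 ± 0.187 (Dnajb1) and 18.1 ± 0.541 (Bag3) FPKM. With piceatannol they stood below them, at 49.6 ± 2.75, 45.6 ± 1.72 and 39.0 ± 1.12 FPKM (SD, n = 3 each).

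The HSP90 genes had unlike values. Hsp90aa1 (chromosome 12, 110690605 to 110702728), the stress-responsive alpha form, had 48.1, 49.4 and 44.8 CPM in control and 161, 161 and 133 CPM in piceatannol libraries, a log2 fold change of 1.68 ± 0.08 (SE). Piceatannol replicate 3 was the lowest of its group here as for Hspa1a. It shares 58.5% of its 50-base stretches with other genes, most with the pseudogene Gm12346, which held at most 19 counts in a library. Hsp90ab1 (chromosome 17, 45567775 to 45573271), the constitutive beta form, had 1826, 2027 and 1797 CPM in control and 2088, 2193 and 2096 CPM in piceatannol libraries, a log2 fold change of 0.17 ± 0.07 (SE). Its groups did not overlap, but the gap between the highest control and the lowest piceatannol library was smaller than the range within control. Hsp90aa1 made up 1.89% ± 0.0745 of the summed HSP90 level in control and 5.16% ± 0.491 with piceatannol on the FPKM scale (SD, n = 3 each), so Hsp90ab1 remained the main HSP90 transcript in all 6 libraries.

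Hspb1 (chromosome 5, 135887919 to 135889563), which encodes the small heat shock protein HSP25, was the least abundant with piceatannol. It was counted 37, 32 and 40 times in control and 180, 185 and 282 times with piceatannol, or 0.700, 0.729 and 0.677 against 4.27, 5.60 and 5.77 CPM. Its log2 fold change was 2.89 ± 0.20 (SE), close in size to that of Hsph1 from a far lower level, and piceatannol replicate 1 was the lowest of its group. On the log2(FPKM + 1) scale, which understates the change of low genes, the value was 1.82. Of its 50-base stretches 51.6% occur in other genes, most in the pseudogene Hsp25-ps1, which was at 0 in control and had 4, 1 and 7 counts with piceatannol.

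Hsf1 (chromosome 15, 76477422 to 76501913), the factor that drives heat-induced chaperone transcription, had 39.6, 44.1 and 45.5 CPM in control and 44.1, 45.7 and 48.1 CPM in piceatannol libraries. The groups overlapped, and the log2 fold change was 0.09 ± 0.07 (SE). In level it stood at 21.3 ± 1.55 FPKM in control and 22.4 ± 0.975 FPKM with piceatannol (SD, n = 3 each). HSF1 is known to be controlled mainly as a protein, which these counts do not measure.

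Summed over the 9 chaperone genes without Hsf1, the level was 757 ± 45.7 FPKM in control and 1506 ± 57.2 FPKM with piceatannol, 1.99-fold higher (SD, n = 3 each). Hsp90ab1 made up 83.0% ± 0.825 of that sum in control and 46.4% ± 1.35 with piceatannol, and Hspa1a and Hspa1b together 0.137% ± 0.0174 and 30.9% ± 1.29. Of the difference between the groups, Hspa1a supplied 31.7%, Hspa1b 30.3%, Hspa8 12.7%, Hsp90ab1 9.29% and Hsph1 5.80%. By group means the small fold change of Hsp90ab1 added 69.6 FPKM and the 8.25-fold difference of Hsph1 added 43.45 FPKM. With an SD for Hsp90ab1 of 43.8 FPKM in control and 21.9 FPKM with piceatannol, the order of these 2 contributions is uncertain. In FPKM the order of the 9 genes in control was led by Hsp90ab1 and Hspa8 and its last 3 places were held by Hspb1, Hspa1b and Hspa1a in each library, with Hspb1 and Hspa1b changing places in control replicate 3. With piceatannol it was led by Hsp90ab1, Hspa1a, Hspa1b and Hspa8 in each library and ended with Hspb1. Bag3 and Hsp90aa1, next to each other with piceatannol, changed places in replicate 3 and did not differ beyond their spread.

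**Figure D3:**
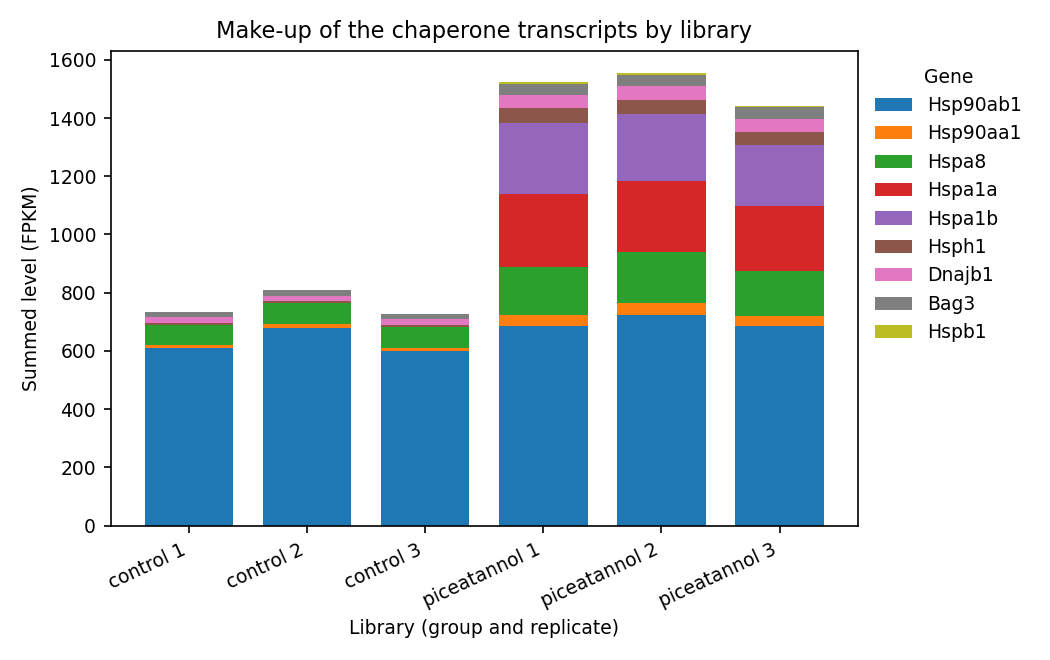
Summed level (FPKM) of the 9 chaperone genes in each library, stacked by gene, without replicate averaging. Hsp90ab1 fills 82.2% to 83.8% of the control bars and 44.9% to 47.6% of the piceatannol bars, in which Hspa1a and Hspa1b fill 29.9% to 32.3%.

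Of the other members with an entry among the RefSeq promoters, Hsph1 and Hspb1 held matches before their RefSeq start. They are shown, 250 bases before the start and 5′ to 3′, because their log2 fold changes were the next largest of the 10 genes after the HSP70 pair. The Hsph1 run covers chr5:149636337-149636586 on the minus strand and the Hspb1 run chr5:135887669-135887918 on the plus strand, with capitals as above.

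Hsph1: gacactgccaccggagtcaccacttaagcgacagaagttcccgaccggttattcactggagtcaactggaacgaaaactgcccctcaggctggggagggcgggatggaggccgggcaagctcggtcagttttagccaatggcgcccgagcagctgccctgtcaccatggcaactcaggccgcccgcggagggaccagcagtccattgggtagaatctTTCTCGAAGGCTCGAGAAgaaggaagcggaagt
Hspb1: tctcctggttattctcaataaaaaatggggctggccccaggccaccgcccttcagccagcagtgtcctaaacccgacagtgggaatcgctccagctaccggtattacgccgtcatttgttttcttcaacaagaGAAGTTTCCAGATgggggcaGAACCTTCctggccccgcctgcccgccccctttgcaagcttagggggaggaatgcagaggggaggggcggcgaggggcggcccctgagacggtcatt

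In Hsph1 the matches ran from 33 to 16 bases before the RefSeq start used for the printed run. A 3-unit match with no different letter, TTCTGGAAAGTTC, lay from 37 to 49 bases after that start. From another RefSeq start of Hsph1 they lay from 54 to 37 bases before it and from 16 to 28 bases after it. In GENCODE the gene extends to 149636376, so by that annotation the capitals lie inside the gene. In Hspb1 the 2-unit matches GAAGTTTC and GAACCTTC lay from 117 to 110 and from 97 to 90 bases before the start. In Bag3 the only match was GAAGTTTC from 43 to 50 bases after the start, and the Dnajb1 windows held no match, which says only that these letters are not in these windows. Hspa8, Hsp90aa1, Hsp90ab1 and Hsf1 had no entry.

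Of all 32851 promoter windows of 300 bases, 0.603% held 3 units, 15.1% held 2 units and 7.22% held 3 units with at most 1 letter different. Among 10901 tested genes with a window, 39.1% were called higher and 40.4% lower by edgeR. Leaving out the 10 genes, 60 tested genes held 3 units, of which 24 rose and 26 (43.3%) fell (median log2 fold change -0.03, against -0.005 for all). With 2 units 603 of 1540 genes (39.2%) rose and 620 (40.3%) fell. With 3 units and at most 1 letter different, 276 of 705 genes (39.1%) rose and 300 (42.6%) fell.

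The wider chaperone network did not follow the inducible HSP70 genes as a block. Outside the 10 genes, 124 genes in 10 lists were looked up and 116 were tested, of which 57 (49.1%) rose and 41 (35.3%) fell, against 38.8% and 38.3% of all tested genes. Called changes of at least 2-fold were found in 17 upward and 5 downward of the 116. Among all 15380 tested genes 2686 were upward and 2548 downward by the same cut. The 17 are thus no excess over the 17.6% of all tested genes with a log2 fold change of at least 1. The lists were chosen with earlier results of these data known, and their counts are a description. Their median log2 fold change was 0.18, against 0.01 for all tested genes.

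**Figure D4:**
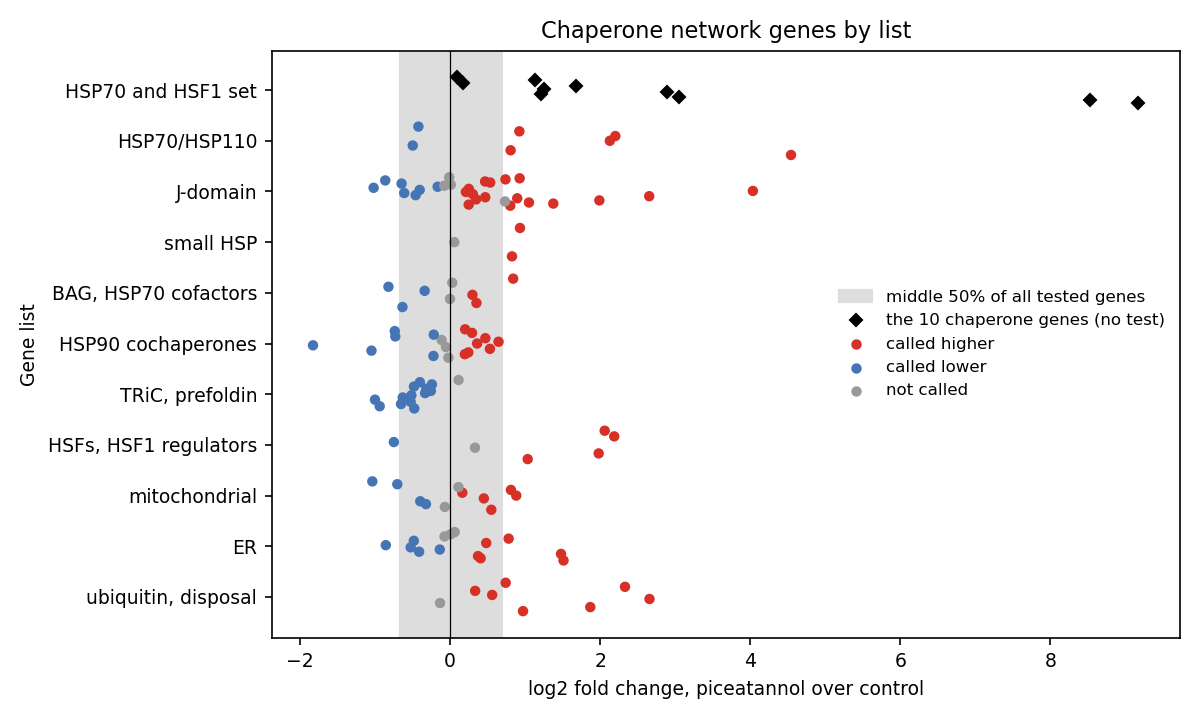
Log2 fold change (piceatannol over control) of the 10 genes and of the tested members of 10 chaperone lists, 1 point per gene, coloured by edgeR call, over the middle 50% of all tested genes in grey. The TRiC and prefoldin genes lie to the left of 0 apart from 1, and the ubiquitin and disposal genes to the right apart from 1.

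Among other HSP70 and HSP110 genes, 5 of 7 tested rose and 2 fell (median log2 fold change 0.92). Hspa4l, an HSP110 gene like Hsph1, rose by 2.13 ± 0.08 (SE) on the log2 scale, from 37.9 ± 3.15 to 166 ± 18.0 CPM, while its relative Hspa4 fell by 0.50. Hspa13, of the endoplasmic reticulum membrane, rose by 0.92, and Hspa14, tied to the ribosome, fell by 0.42.

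Of 28 tested J-domain genes, 17 rose and 7 fell (median 0.32). Dnajb4, a close relative of Dnajb1, rose by 1.99 ± 0.09 (SE), from 15.5 ± 0.577 to 61.6 ± 7.70 CPM, and Dnaja4 rose by 1.37. Dnajc9, a histone chaperone, fell by 1.02 and Dnajc24, a cofactor of diphthamide synthesis, by 0.86. Of the small heat shock protein genes only 3 of 8 had enough counts, of which the alpha-crystallin B gene Cryab (0.93) and Hspb6 (0.82) rose, and Hspb8, the partner of BAG3, had 0.06 and was not called (adjusted p = 0.84, edgeR). Hspb8 was named after its value was seen.

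Other BAG genes and HSP70 cofactors went 3 up and 3 down of 8, with a median of 0.01. Stub1, which encodes the ubiquitin ligase CHIP that marks HSP70 clients for disposal, rose by 0.84 from 92.1 ± 2.51 to 165 ± 7.44 CPM, and Bag2, an inhibitor of CHIP, rose by 0.35. The exchange factor genes Hspbp1 (-0.82) and Bag1 (-0.64) fell.

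HSP90 cochaperones went 8 up and 6 down of 17, with a median of -0.02. Chordc1 (0.65) and Cdc37l1 (0.53) rose. Fkbp5, a glucocorticoid-responsive immunophilin, fell 3.55-fold from 91.7 ± 1.42 to 25.8 ± 2.21 CPM, and Cdc37, which brings kinases to HSP90, fell 2.07-fold from 311 ± 13.3 to 150.2 ± 6.50 CPM. Named after their values were seen, Stip1 (-0.02) and Fkbp4 (-0.06), cochaperones also known as HSF1 targets, were not called, and Ahsa1, the activator of the HSP90 ATPase, fell by 0.22.

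The cytosolic chaperonin TRiC folds actin and tubulin, and prefoldin delivers them. Of 14 subunit genes of these complexes 13 fell, 0 rose and Vbp1 (0.11) was not called, with a median of -0.48. Cct5 fell 2.002-fold, from 267 ± 12.7 to 133 ± 5.44 CPM, and Cct2 fell 1.92-fold, from 284 ± 13.2 to 148 ± 2.41 CPM. Only Cct5 fell at least 2-fold, and without piceatannol replicate 3 the count of rises was 1. The count of rises was also 0 by edgeR at an unadjusted p under 0.05, by DESeq2 and by limma-voom.

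Other heat shock factors and HSF1 regulators went 4 up and 1 down of 6 tested, with a median of 1.51. Ier5, an immediate early gene whose product is known to help activate HSF1, rose by 2.19 ± 0.07 (SE), from 237 ± 17.8 to 1080 ± 42.0 CPM, and Dedd2 rose by 2.06. The factor genes Hsf2 (1.03) and Hsf4 (1.98), named after their values were seen, rose, while Hsbp1, whose product binds HSF1 trimers, fell by 0.75. Ubiquitin and disposal genes went 7 up and 0 down of 8 tested (median 0.86). The autophagy receptor gene Sqstm1 rose by 2.66, from 692 ± 27.5 to 4365 ± 303 CPM, and Zfand2a, an arsenite-inducible proteasome partner, by 2.33 from 104 ± 4.17 to 522 ± 2.17 CPM. The polyubiquitin gene Ubb (0.97), named after its value was seen, also rose. The count of falls in that list was also 0 by edgeR at an unadjusted p under 0.05, by DESeq2 and by limma-voom. The adjusted p of every gene called in these lists and named here lay at or below 0.00647 (Bag2) by edgeR's quasi-likelihood test.

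The genes most like Hspa1a were sought over the 6 libraries by the Euclidean distance between log2 CPM profiles centred on the control mean, among 10441 genes that are not members and average at least 2 in log2 CPM. Hspa1b lay at a distance of 1.12, a value to which the uncertain division of reads between the pair also applies. The nearest other genes were far off, with Cdkn1c, encoding the cell cycle inhibitor p57, at 3.95 (log2 fold change 6.91), Gramd1c at 5.82, the semaphorin gene Sema4f at 5.97, the haem oxygenase gene Hmox1 at 6.49 and Ppp1r32 at 6.84. Around Hsph1 the field was crowded, with Ppp1r15a, encoding the eIF2 phosphatase subunit GADD34, at 0.184, the AP-1 gene Jun at 0.192, Gde1 at 0.200, Rassf8 at 0.206 and Tnfrsf22 at 0.216, all nearer than the closest member Hspb1 at 0.610. Their log2 fold changes lay between 2.96 (Gde1) and 3.11 (Rassf8). The distance is set mainly by the difference between the groups and rests on 6 libraries that share their scaling. Cdkn1c, Gramd1c, Sema4f and Ppp1r32 averaged at most 1.49 CPM in control and so passed the cut on mean level through their piceatannol values. Genes below the cut, such as Gm20481 with a log2 fold change of 8.27, were not compared. How far off the nearest genes lay thus holds only among genes above it.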

How the data were processed

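RNA was sequenced in 3 control and 3 piceatannol libraries, grouped by their labels. Per the labels' protocols, 1 µg of total RNA per library was used with an Illumina TruSeq kit. The authors deposited unnormalised counts for each gene symbol. The FPKM values they deposited for the same libraries were scaled between libraries by factors equal to median-of-ratios factors. Per the submitters' processing notes, bcl2fastq, STAR, featureCounts and DESeq2 were used with builds mm10 and GRCm38. The sources used here do not give versions, annotation or strand setting.

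Counts were filtered with filterByExpr (minimum count 10, leaving 15380 genes), scaled by TMM and tested with edgeR 4.0.16 (quasi-likelihood, robust, no covariate, two-sided, Benjamini-Hochberg over all tested genes, threshold 0.05). The SE is the log2 fold change divided by the square root of F. The 10 genes and the lists were chosen with earlier results of these data known. From each list the called genes (mean log2 CPM at least 2) with the 2 most positive and 2 most negative log2 fold changes were named, with all 10 genes, the tested neighbours within 100 kb, Hspa1l, and the 5 genes most like Hspa1a and Hsph1. Positions are from GENCODE M21, promoters from RefSeq (GRCm38.p6, 70.9% of tested genes matched by symbol). The fit was tested on simulated counts. Some items are not reported here. Alternatives included DESeq2 1.42.0 and limma 3.58.1.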

Additional observations from a re-analysis of the deposited data

How the results depend on the processing

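Of 133 recomputed counts, 125 stayed within 1.5 times of their value. Requiring a 2-fold change as well cut the calls over all genes from 11846 to 5234 (2686 higher, 2548 lower) and those of the other chaperone genes from 98 to 22 (17 higher, 5 lower), by construction. Searching 2 GAA units, or 3 with 1 letter different (chosen after seeing the data), raised the number of promoter-match genes called higher from 24 to 603 and 276, since more genes match. Leaving out 1 library at a time gave between 11487 and 11880 calls over all genes and between 95 and 97 among the other chaperone genes, and 8 of the 10 genes kept a log2 fold change of at least 1. With a filter of 5 CPM or more in 3 libraries Hspb1 was removed and that number was 7. No log2 fold change of the 10 genes reversed in 159 recomputed values. On log2(FPKM + 1) those of Hspa1a and Hspa1b were 7.40 and 7.14, by the construction of that scale. Hsf1 ranged from 0.03 to 0.15 and Hsp90ab1 from 0.14 to 0.23. Of the genes named beside them, the uncalled C2 ranged from -0.4446 (without piceatannol replicate 2) to 0.0313 (without piceatannol replicate 1), and Cfb lost its call in 5 settings.

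Control and piceatannol libraries share replicate numbers, but the deviations of same-numbered libraries from their group means correlated by 0.037, 0.070 and 0.065, too little to treat them as pairs, although each library correlated best with its own number. With the replicate number as a block, 12012 genes were called over all (6038 higher, 5974 lower) and 98 other chaperone genes (57 higher, 41 lower). Depth limits the control values of Hspa1a, Hspa1b and Hspb1, which rest on 32 to 112 counts per library.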

Other observations

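Chaperone genes of other compartments were called in shares near those of all tested genes, of which 38.8% rose and 38.3% fell. Of 11 mitochondrial chaperone genes, 5 (45.5%) rose and 4 (36.4%) fell by edgeR's quasi-likelihood test (median log2 fold change 0.11). The nucleotide exchange factor gene Grpel2 rose by 0.88, from 15.0 ± 0.761 to 27.6 ± 2.78 CPM, and the iron-sulfur cochaperone gene Hscb by 0.81, while Dnajc19 (-1.04) and Dnajc15 (-0.70), of the inner membrane import motor family, fell. Named after their values were seen, Hspd1 (-0.07), encoding HSP60, was not called and its partner Hspe1, encoding HSP10, fell by 0.32. Hspa9, the mitochondrial HSP70 gene, also named after its value was seen, had 283 ± 11.5 and 414 ± 22.7 CPM (SD, n = 3 each) and rose by 0.55.

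Of 14 endoplasmic reticulum chaperone genes, 6 (42.9%) rose and 5 (35.7%) fell (median 0.03). Hspa5, encoding the reticulum's HSP70, rose 2.85-fold from 1311 ± 17.04 to 3736 ± 295 CPM, and its J-domain partner gene Dnajb9 rose by 1.48. Sdf2l1 (-0.86) and Dnajc10 (-0.53) fell. With piceatannol Hspa5 was thus higher in CPM than Hspa1a and Hspa1b combined in each library. Hspa9 and Hspa5 were higher than in control, as were Hspa1a and Hspa1b, which were chosen on this comparison. Of the other HSP70 and HSP110 genes 5 of 7 rose and 2 fell, so a rise was not shared by the whole family.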
